A study of Homo sapiens with 6 samples.

Results

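The insulin-like growth factor (IGF) axis was followed here through 10 genes: the binding proteins IGFBP2 to IGFBP7, the receptors IGF1R, IGF2R and INSR, and the adaptor IRS2. They were picked by symbol from the 38637 genes of the deposited table, and the difference between the treatments was known when they were picked. For these genes that difference is therefore a description and carries no test. All samples were OVCAR8, an ovarian cancer cell line, labelled wild type. Cells received either the solvent DMSO or 2 nM pladienolide B, a compound that binds the splicing factor SF3B1 and inhibits splicing, and both groups were collected at 72 h. Polyadenylated RNA was sequenced in 3 samples of each group. Nothing in the labels says whether the samples of a group were separate cultures, so errors and p-values measure the spread between these samples, which may be technical.

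IGF1 and IGF2 act through IGF1R, a receptor tyrosine kinase closely related to the insulin receptor INSR, and both receptors recruit IRS adaptors that lead to PI3K and AKT. The IGFBPs are secreted proteins that hold IGFs in the extracellular fluid. They can keep IGFs from the receptors or release them after cleavage, and IGFBP3 also acts on cells without IGFs. IGF2R, the large mannose 6-phosphate receptor, takes up IGF2 for breakdown in lysosomes and sorts lysosomal enzymes.

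IGFBP3 was the member with the largest difference. Its adjusted read number, that is, reads brought by the authors to a common library size, was 8149 ± 461 (SD, n = 3) with DMSO and 3013 ± 62.8 with pladienolide B, or 37.0% of the DMSO mean. IGFBP4, IGFBP6 and INSR were higher with pladienolide B, at 149%, 147% and 129% of DMSO, and IGF1R was slightly lower, at 84.9%. IGF2R, IRS2 and IGFBP7 had overlapping groups. IGFBP2 and IGFBP5 had at most 4 reads in a sample.

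The recovered reads on genes numbered 22621338 to 26130882 per sample. DMSO 2 stood apart from the other DMSO samples. The chi-square per degree of freedom between adjusted reads was 7.6 and 7.53 for its pairs and 1.93 for DMSO 1 and DMSO 3. It was 3.31 to 4.91 among the pladienolide B samples. Of 12 epithelial ovarian cancer markers, 6 had a mean of at least 50 adjusted reads, with PAX8 at 3979 to 4411 reads and KRT8 at 42388 to 52922. KRT8 and KRT18 made up most of the sum and rose (log2 fold changes 0.27 and 0.29, limma adjusted p = 0.00084 and 0.00096), while KRT7 and MSLN fell (-0.64 and -0.44, adjusted p = 7.7e-06 and 4.5e-07). WT1, MUC16, KRT19 and CDH1 were low, at 8 to 40 reads. CDH1 still rose (0.67, adjusted p = 0.032), as did CLDN4, at 20 to 58 reads (1.16, adjusted p = 0.0013). CLDN3 (0.79, adjusted p = 0.068) and EPCAM (-0.10, adjusted p = 0.31) did not pass. Of the 12 markers, 4 rose and 2 fell, or 50% called beside 47.6% of all genes tested (22.4% higher, 25.2% lower). Summed adjusted reads of this list were 80840 to 86720 with DMSO and 81310 to 96680 with pladienolide B. Of 9 leukocyte markers, 5, PTPRC, CD3E, CD3D, LYZ and MS4A1, had fewer than 3 reads in every sample, and the sums of 1128 to 1294 and 1513 to 1618 were almost all CD68. The 5 endothelial markers summed to 69.4 to 84.7 and 92 to 117.2. The 6 fibroblast markers summed to 6969 to 7148 and 5917 to 6571, nearly all COL1A1, with DCN at 0 to 2 reads. The part of these markers in the results below was not tested.

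IGFBP3 lies on chromosome 7 at 45912245 to 45921272 on the minus strand (GRCh38), and its canonical transcript has 5 exons. IGFBP4 lies on chromosome 17 at 40443450 to 40457725 on the plus strand. IGFBP6 lies on chromosome 12 at 53097667 to 53102340 on the plus strand. The 100 bases before the RefSeq start of each (GRCh38.p14) are shown because these are the 3 binding protein genes with the largest differences, 1 lower and 2 higher. Capitals mark TATATA or TATAAA on the gene strand, GGGCGG on either strand (CCGCCC when read on the gene strand) and GCGTG. The windows are chr7:45921273-45921372 (minus strand), chr17:40443350-40443449 (plus strand) and chr12:53097567-53097666 (plus strand).
IGFBP3: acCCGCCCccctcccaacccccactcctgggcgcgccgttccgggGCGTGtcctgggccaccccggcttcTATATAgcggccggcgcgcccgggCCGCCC
IGFBP4: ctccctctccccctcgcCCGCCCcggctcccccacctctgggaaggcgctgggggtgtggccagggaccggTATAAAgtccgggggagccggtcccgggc
IGFBP6: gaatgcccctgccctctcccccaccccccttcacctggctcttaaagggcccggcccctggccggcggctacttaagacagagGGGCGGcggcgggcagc

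TATATA began 30 bases before the IGFBP3 start, and TATAAA began 29 bases before that of IGFBP4. Among the 17599 RefSeq promoter windows of the genes tested, each with 250 bases before and 50 after the start, 2.14% held TATATA and 4.23% held TATAAA. Neither run was found in the IGFBP6 window. GGGCGG, the core of the GC box, was found in all 3 and in 64.0% of the 17599. GCGTG, a core of hypoxia response elements, had 3 matches in the 300 bases of IGFBP3 and none in those of IGFBP4 and IGFBP6. At least 1 match was present in 47.3% of the windows. ACGTG, the other such core searched, was in none of the 3 and in 24.9% of the windows. Of the other members, IGF1R had 4 GCGTG matches and 1 ACGTG match. IGF2R had 6 ACGTG matches over both strands and no GCGTG. They are CACGTG runs beginning 132, 74 and 28 bases before the start, each matched once on either strand. IGFBP2 had 1 match of each, but in different windows of its 3, and IGFBP5, INSR and IRS2 had neither. IGFBP7 had no window. The shown stretches were 79%, 76% and 72% G and C. A match is a run of letters and was not tested as a binding site.

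IGFBP3, the main carrier of IGFs in blood, had 8221, 8570 and 7656 adjusted reads in the DMSO samples and 3086, 2974 and 2980 in the pladienolide B samples. The lowest DMSO sample was above the highest pladienolide B sample by a wide margin, and DMSO 2, the library that stood apart, was the highest of its group. The log2 fold change on the log2(adjusted reads + 1) scale was -1.43 ± 0.05 (SE), a 2.7-fold lower level. Of the 16178 genes that passed the filter on low values, 75 had a lower log2 fold change. In bulk RNA, fewer cells of a kind and less RNA per cell cannot be told apart.

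IGFBP4, a small binding protein mostly known to inhibit IGF action, had 2670, 2798 and 2787 adjusted reads with DMSO and 4345, 3650 and 4320 with pladienolide B. All 3 treated samples were above all DMSO samples, and pladienolide B 2 was the lowest of its group. The means were 2751 ± 71.1 and 4105 ± 394, and the log2 fold change was 0.57 ± 0.06 (SE).

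IGFBP6, which prefers IGF2 over IGF1, had 361, 440 and 441 adjusted reads with DMSO and 615, 579 and 636 with pladienolide B. The groups did not overlap, and DMSO 1 was the lowest sample. The means were 414 ± 46.1 and 610.1 ± 29.0, and the log2 fold change was 0.56 ± 0.09 (SE), close to that of IGFBP4.

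IGFBP7, a relative that binds IGFs only weakly, was near the lower limit of what could be compared. Its adjusted reads were 38.6, 45.3 and 31.0 with DMSO and 43.7, 44.8 and 37.1 with pladienolide B, so the groups overlapped. The log2 fold change was 0.14 ± 0.23 (SE), with a 95% interval of -0.34 to 0.62, so a fall or a rise within those bounds remains possible. It shares 386 bases with POLR2B, a gene of the opposite strand with 6320 to 7363 reads, and the strand setting of the counting is not given in the sources used here, so reads of POLR2B could not be told apart from its own there.

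IGFBP2 had 0, 1 and 2 reads with DMSO and 2, 0 and 4 with pladienolide B. IGFBP5 had 0, 1 and 1 and then 0, 0 and 1. These binding proteins are neighbours on chromosome 2, pointing in opposite directions with 7668 bases between them. Neither passed the filter, and at or near the 3 reads that a count of 0 allows no fold change is given.

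**Figure D1:**
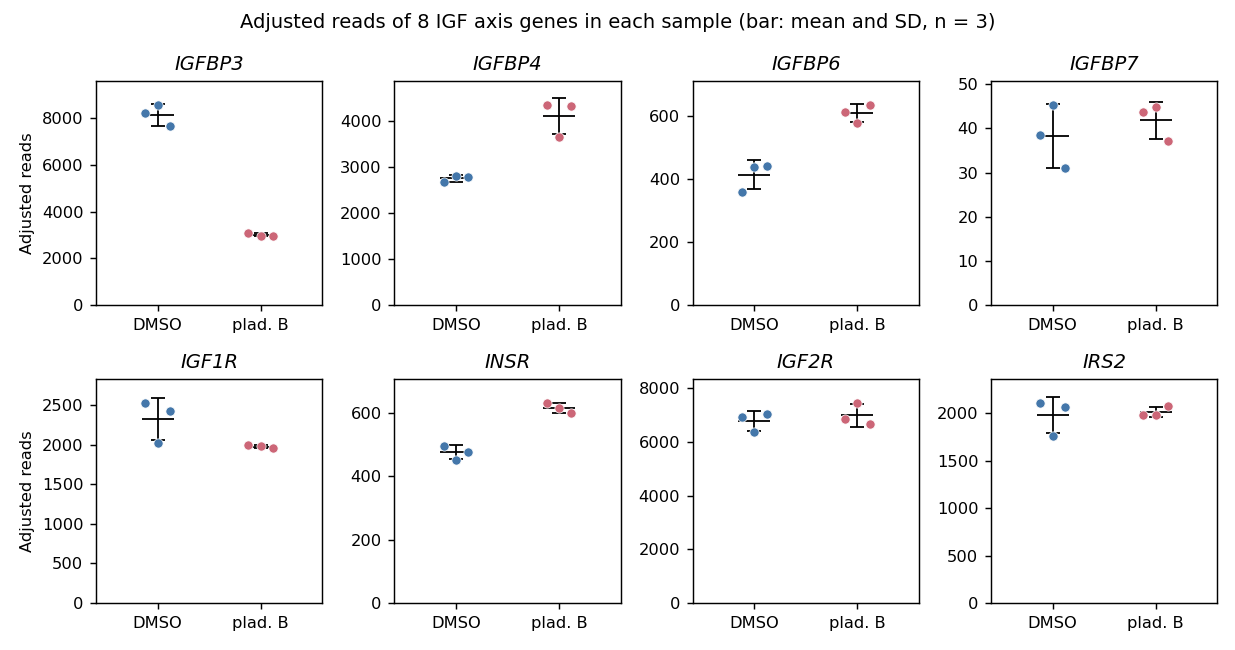
Adjusted reads (linear axis from 0, a scale of its own in each panel) of the 8 members that passed the filter in the 3 DMSO and 3 pladienolide B (plad. B) samples; each point is a sample and the bars are the mean and SD. IGFBP3 lies between 2974 and 3086 adjusted reads with pladienolide B, far below its DMSO samples, IGFBP4, IGFBP6 and INSR lie above their DMSO samples, and IGFBP7, IGF2R and IRS2 overlap.

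INSR, the insulin receptor, had 497, 452 and 478 adjusted reads with DMSO and 632, 615 and 600 with pladienolide B. The groups did not overlap. The means were 475.8 ± 23.0 and 615.9 ± 16.1, with a log2 fold change of 0.37 ± 0.07 (SE).

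IGF1R, the main signalling receptor for IGFs, had 2532, 2019 and 2429 adjusted reads with DMSO and 1996, 1979 and 1954 with pladienolide B. The treated samples lay close together just below DMSO 2, which was far below the other DMSO samples. The log2 fold change was -0.23 ± 0.07 (SE), -0.16 without DMSO 1 and -0.33 without DMSO 2. On the RPKM scale, reads per kilobase of exon relative to the library total, the groups overlapped, since DMSO 2 was at 5.75 and the treated samples were at 5.82 to 5.88. IRAIN, an antisense transcript that shares 2249 bases with IGF1R, had 52 to 94 reads in a sample.

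IGF2R had 6938, 6359 and 7056 adjusted reads with DMSO and 6841, 7460 and 6662 with pladienolide B. The highest and the lowest sample were a treated sample and DMSO 2, and the ranges overlapped. The log2 fold change was 0.04 ± 0.05 (SE), with a 95% interval of -0.06 to 0.15. The pseudogene CHP1P2 within it had 7 to 35 reads, and the antisense transcript AIRN had none.

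IRS2, one of the 2 widely expressed IRS adaptors, had 2111, 1760 and 2063 adjusted reads with DMSO and 1984, 1985 and 2078 with pladienolide B. DMSO 2 was again the lowest. The log2 fold change was 0.03 ± 0.06 (SE), with a 95% interval of -0.10 to 0.16.

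Of the 10 members 8 passed the filter, and 5 of them had an adjusted p below 0.05 in the limma fit over all genes, 3 higher and 2 lower, where 47.6% of the 16178 genes tested did (22.4% higher, 25.2% lower). The same 5 were the members whose groups did not overlap in adjusted reads, against 55.3% of all genes (26.4% higher, 28.8% lower). Since this contrast chose the members, nothing is read from the counts.

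Levels of different genes were compared as RPKM over all annotated exons. With DMSO the order was IGFBP3 (71.9 ± 3.31), IGFBP4 (50.3 ± 1.09), IGFBP6 (12.4 ± 1.3), IGF2R (12.1 ± 0.83), IRS2 (9.79 ± 1.07), IGF1R (6.74 ± 0.871), INSR (1.77 ± 0.108) and IGFBP7 (0.801 ± 0.138). IGFBP6 and IGF2R overlapped over the samples and the other neighbours did not, apart from IGFBP2 and IGFBP5 at the bottom. With pladienolide B the first places were exchanged: IGFBP4 was at 77.0 ± 7.3 and IGFBP3 at 27.3 ± 0.433. IGFBP6, at 18.7 ± 0.914, then lay above IGF2R, at 12.8 ± 0.775, without overlap, and the order of the others was as with DMSO. With the length of the canonical transcript IGF2R (19.5) stood above IGFBP6 (17.6) with DMSO, with overlap, and below it with pladienolide B (20.5 against 26.6).

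**Figure D2:**
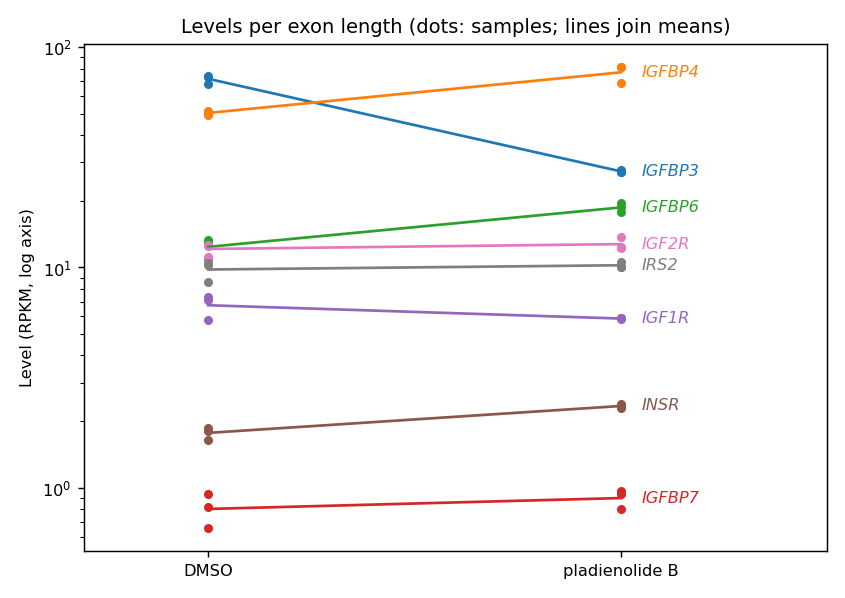
Level of each of the 8 members that passed the filter as RPKM (log axis) with DMSO and with pladienolide B. Dots are the 3 samples of a group and lines join the means. The lines of IGFBP3 (71.9 to 27.3 RPKM) and IGFBP4 (50.3 to 77.0) cross. The means of the other members shown keep their order on this scale of all annotated exons.

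IGFBP3 made up 54.5%, 53.7% and 51.0% of the summed RPKM of IGFBP2 to IGFBP7 in the DMSO samples and 21.6%, 23.6% and 21.0% in the pladienolide B samples. IGFBP3 thus took the largest share in each DMSO sample and the second place, after IGFBP4, in each pladienolide B sample. The share of IGFBP4 was 37.2% ± 1.16 and then 62.0% ± 1.79. That of IGFBP6 was 9.16% ± 0.929 and then 15.1% ± 0.489. The sum itself was 135 ± 2.83 RPKM with DMSO and 124 ± 8.34 with pladienolide B, or 91.5%, and 78.3% of DMSO when the canonical transcript's length was used, which gives the IGFBP3 gene a shorter length.

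**Figure D3:**
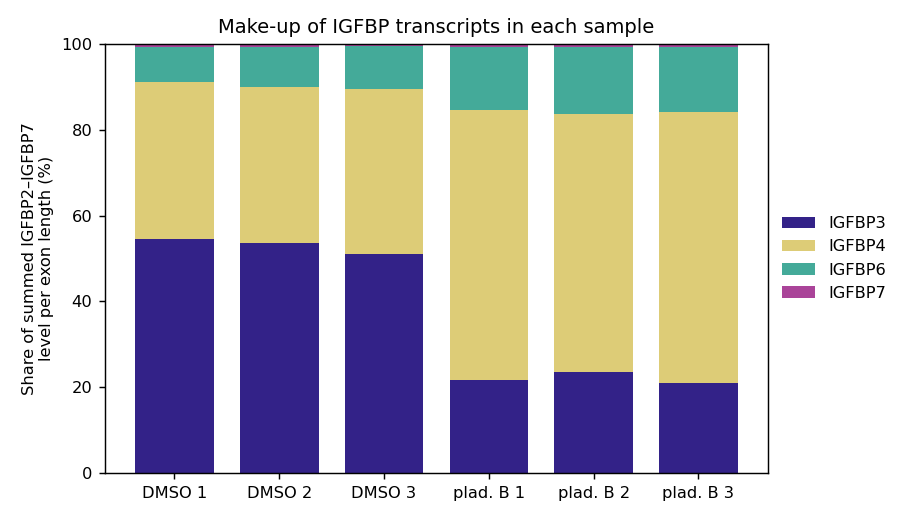
Stacked bars give the share (%) of each binding protein in the summed RPKM of IGFBP2 to IGFBP7 for each of the 6 samples. The IGFBP3 share was 51.0% or more in the DMSO samples and 23.6% or less in the pladienolide B (plad. B) samples, where IGFBP4 took 60.0% or more.

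Pairs of genes with related roles were also compared within each sample. The ratio of IGFBP3 to IGFBP4 RPKM was 1.49, 1.48 and 1.33 with DMSO and 0.343, 0.393 and 0.333 with pladienolide B. The ratio of IGF1R to INSR was 3.96, 3.47 and 3.94 with DMSO and 2.45, 2.5 and 2.53 with pladienolide B. The receptor ratio did not overlap between the groups, although the IGF1R level alone did on this scale. The INSR level alone already did not overlap, at 1.65 to 1.87 RPKM with DMSO and 2.3 to 2.4 with pladienolide B. The ratio of IRS2 to IRS1 was 3.03, 2.44 and 3.15 and then 3.61, 3.23 and 3.45, also without overlap. How often ratios of other genes part the groups was not computed.

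The other genes of the axis were taken from 9 lists of 95 genes by role. Of these 79 passed the filter and 48, or 60.8%, passed the limma test at an adjusted p below 0.05, 23 higher and 25 lower, beside the 47.6% of all genes. Their median log2 fold change was -0.01, against -0.004 over all genes tested. At least 1.5-fold differences were found in 9 of the 79, or 11.4%, 6 higher and 3 lower, against 11.5% of all genes (4.73% higher, 6.79% lower). The adjusted p-values below are from limma over all genes.

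The ligands had few or no reads. IGF1 had 0 or 1 read in every sample. IGF2 had 17, 20 and 33 reads with DMSO and 31, 19 and 36 with pladienolide B, with a log2 fold change of 0.40 ± 0.32 (SE, adjusted p = 0.32). INS had at most 1 read, and IGFALS, the acid-labile subunit that joins IGFBP3 and IGF in a complex in blood, had 2 to 6. Any IGF in the medium was not measured here.

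IGFBP1, whose gene lies 18584 bases from IGFBP3 on chromosome 7 on the other strand, had 77.5, 61.5 and 55.5 adjusted reads with DMSO and 36.6, 46.9 and 51.1 with pladienolide B. The groups did not overlap but came close. The log2 fold change was -0.52 ± 0.21 (SE, adjusted p = 0.049), and 10 of 14 alternatives ended the call. Over all 14 the adjusted p-values were 0.042 to 0.21. The neighbouring pair thus had values in the same direction, with the size of the IGFBP1 difference poorly fixed.

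The next list held 13 genes for proteins that carry an IGFBP-type domain without being high-affinity IGF carriers. Of these 9 were tested, 6 rose (CCN1, CCN2, CCN3, ESM1, IGFBPL1 and HTRA1) and 2 fell (CRIM1 and KAZALD1), where 22.4% of all genes tested rose and 25.2% fell, and their median log2 fold change was 0.38. CCN2, the matricellular protein CTGF, had 3258, 3928 and 3319 adjusted reads with DMSO and 5976, 5737 and 5310 with pladienolide B (log2 fold change 0.70 ± 0.06, adjusted p = 1.1e-07). ESM1, or endocan, a secreted proteoglycan, had 331, 414 and 292 and then 787, 907 and 637 (1.17 ± 0.12, adjusted p = 7.1e-07). Both were well above their DMSO range in every treated sample.

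KAZALD1, a secreted protein with an IGFBP and a Kazal domain, went the other way, with 141, 129 and 123 adjusted reads with DMSO and 59.5, 79.6 and 54.1 with pladienolide B (-1.03 ± 0.17, adjusted p = 8.7e-05). HTRA1, a secreted serine protease, was a low gene, with 2, 6 and 15 reads with DMSO and 36, 29 and 37 with pladienolide B. Its log2 fold change was 2.43 ± 0.48 (SE), 1.79 without DMSO 1 and 3.03 without DMSO 3, so its size depends on which DMSO library is used. HTRA1 passed the filter only through its pladienolide B samples, so no p-value is given for it. With at least 10 adjusted reads required in every sample it was not tested. It is still counted above among the genes that rose.

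Of 9 IGFBP proteases and their inhibitors 5 were tested, 1 rose (STC1) and 2 fell (ADAM9 and ADAM12), or 60% called beside 47.6% of all genes, with a median of -0.14. STC1, stanniocalcin 1, inhibits the IGFBP4 protease PAPPA. It had 113, 52.5 and 112 adjusted reads with DMSO and 202, 216 and 236 with pladienolide B (1.31 ± 0.22, adjusted p = 9e-05), and DMSO 2 was again the sample apart (0.95 without it). STC2, a related PAPPA inhibitor with far more reads, had 10110, 6362 and 10210 adjusted reads with DMSO and 7647, 8742 and 7411 with pladienolide B, with overlapping groups (-0.14 ± 0.12, adjusted p = 0.38). The STC2 groups overlapped only through DMSO 2, since DMSO 1 and DMSO 3 lay above every treated sample. PAPPA itself was at 1 to 9 reads and was not tested.

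Among the 7 reported cell partners of IGFBP3 and IGFBP5, all tested, 1 rose (TGFBR2) and 3 fell (LRP1, TMEM219 and CAV1), or 57.1% called beside 47.6% of all genes, with a median of -0.05. LRP1, an endocytic receptor that binds IGFBP3, had 5118, 4234 and 5253 adjusted reads with DMSO and 2903, 3207 and 3023 with pladienolide B (-0.67 ± 0.07, adjusted p = 3.2e-07). TMEM219, described as a cell death receptor for IGFBP3, had 953, 944 and 997 and then 689, 679 and 612 (-0.55 ± 0.06, adjusted p = 2.6e-06); at less than 1.5-fold it was named after its values were seen. Neither receptor's groups overlapped. Within the DMSO group both were lowest in DMSO 2, where IGFBP3 was highest, and highest in DMSO 3, where IGFBP3 was lowest. That order rests on 3 samples, among them DMSO 2, the library that stood apart. For TMEM219 it rests on 944 against 953 adjusted reads at its lower end. How many other genes had the same order was not computed. A relation between these genes was not tested, and IGFBP3, LRP1 and TMEM219 were all lower with pladienolide B.

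Of 6 regulators of IGF family mRNAs 4 were tested, HMGA2 rose and IGF2BP2 fell, or 50% called beside 47.6% of all genes, with a median of -0.06. HMGA2, a chromatin protein known to drive IGF2BP2 transcription, had 2895, 3231 and 2841 adjusted reads with DMSO and 5355, 5886 and 5274 with pladienolide B (0.88 ± 0.05, adjusted p = 1.4e-09). IGF2BP2 was at 4784 ± 146 and 4378 ± 82.4 (-0.13 ± 0.04, adjusted p = 0.018). The treated samples did not overlap those with DMSO for either gene, and the directions were opposite.

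Of 20 adaptors and brakes 19 were tested, 4 rose (GRB2, GRB10, PTPN1 and GIGYF2), 4 fell (IRS1, SOS1, SOS2 and NEDD4), or 42.1% called beside 47.6% of all genes, and the median was 0.01. GRB10, an adaptor that dampens both receptors, had 51.9, 41.3 and 47.3 adjusted reads with DMSO and 71.0, 89.4 and 81.2 with pladienolide B (0.77 ± 0.19, adjusted p = 0.0025). IRS1, the other common IRS adaptor, had 856, 885 and 804 and then 676, 753 and 740 (-0.23 ± 0.07, adjusted p = 0.008), and lost the call without pladienolide B 1 (adjusted p = 0.053, range over its alternatives 0.0077 to 0.053).

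Of 23 PI3K and AKT genes 22 were tested, 5 rose, among them PIK3CA and FOXO1, 9 fell, among them PIK3CB, AKT2 and FOXO3, and the median was -0.09. The called share was 63.6%, beside 47.6% of all genes tested (22.4% higher, 25.2% lower). No gene of the list reached 1.5-fold. The kinase gene AKT2 was at 1820 ± 50.4 adjusted reads with DMSO and 1374 ± 95.4 with pladienolide B (-0.41 ± 0.06, adjusted p = 1.5e-05). FOXO1 and FOXO3, transcription factors that AKT restrains, moved in opposite directions, at 0.46 ± 0.12 (adjusted p = 0.0045) and -0.41 ± 0.09 (adjusted p = 0.0012).

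Of 11 genes of mannose 6-phosphate sorting, the route that IGF2R serves, all were tested, 5 rose (M6PR, NAGPA, GGA2, GGA3 and VPS26A), 3 fell (GNPTAB, SORT1 and VPS29), and the median was 0.08. The called share was 72.7%, beside 47.6% of all genes tested (22.4% higher, 25.2% lower). GNPTAB encodes the catalytic part of the enzyme that begins the mannose 6-phosphate tag. It had 1209, 1288 and 1218 adjusted reads with DMSO and 759, 791 and 675 with pladienolide B (-0.74 ± 0.07, adjusted p = 1e-07). M6PR, the small mannose 6-phosphate receptor, was at 3189 ± 87.2 and 3994 ± 138 (0.32 ± 0.04, adjusted p = 1.2e-05), beside IGF2R with a log2 fold change of 0.04.

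**Figure D4:**
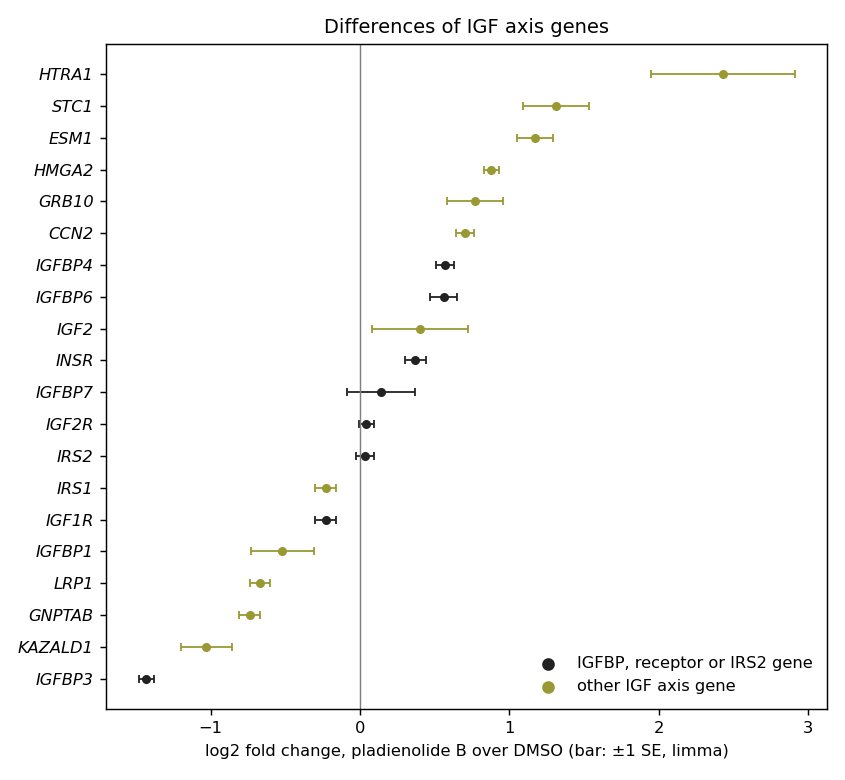
Difference between the treatments as a log2 fold change, positive where pladienolide B was higher (bars are ±1 SE from limma, 3 samples a group). Members that passed the filter are black, and the other IGF axis genes named by rule are olive. IGFBP3 is at the lower end at -1.43, and IGFBP4, IGFBP6 and INSR lie between 0.37 and 0.57. HTRA1 is at the upper end at 2.43 and passed the filter only through its pladienolide B samples.

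The genes most like IGFBP3 were sought among 70 with a mean of at least 50 adjusted reads and a log2 fold change within 0.25 of its own. Over the 6 samples the highest Pearson correlations of log2(adjusted reads + 1) were those of POLR3G (0.9983), a subunit of RNA polymerase III, the zinc finger gene ZNF781 (0.9982), NGLY1 (0.9981), an enzyme that removes glycans from misfolded proteins, the deubiquitinase USP24 (0.9972) and C8orf58 (0.9967). All samples are of 2 groups, so such values mostly restate the difference between the groups. USP24 had 3727, 4022 and 3885 adjusted reads with DMSO and 1473, 1378 and 1462 with pladienolide B, a log2 fold change of -1.43 as for IGFBP3.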

How the data were processed

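RNA sequencing of 3 DMSO and 3 pladienolide B samples was analysed from 1 table. The study's methods name trimming, hisat2 on hg38 and DESeq2, while the submitters' processing notes name hg19, HISAT2, HTSeq 0.12.4 and DESeq2. Of 35926 symbols shared with GRCh38.p14, 99.8% overlapped their position there, so GRCh38 was used. The values the authors deposited are a signal, adjusted to a common library size. They were recovered as whole reads by inverting edgeR's quantile adjustment with a common dispersion of 0.0027, and adjusting those reads again gave 100% of 231822 values within 0.02. The recovered reads were 22621338 to 26130882 per sample, and counting error relative to the count falls as a gene's reads rise. Deposited columns of fold changes, p-values and q-values were not used.

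Genes were kept by filterByExpr of edgeR 4.0.16 (10 in 3 samples, 15 in total), which left 16178, and tested with limma 3.58.1 (R 4.3.3, variance trend, two-sided, Benjamini-Hochberg) on log2(adjusted reads + 1). The added 1 can make log2 fold changes of low genes smaller: HTRA1 was at 2.43, against 2.68 with 0.1 added instead. It was at 2.26 with DESeq2 and 2.24 with edgeR's quasi-likelihood test, so 2.43 is not a lower bound. The steps were also run on simulated data with few changed genes, the same dispersion for every gene and no sample apart. These data differ in that, so the simulation does not measure the error of the calls here. Alternatives were edgeR's quasi-likelihood test, DESeq2 1.42.0, upper quartile scaling, other filters and pseudocount, no trend, a replicate block and leaving out each sample. RPKM was computed from recovered reads and GENCODE exons.

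Members and lists were chosen with earlier results of these data known. Genes named were the members, listed axis genes with an adjusted p below 0.05 and at least 1.5-fold, IGF1, IGF2, IGFBP1, IRS1, genes overlapping a member and the 5 most like IGFBP3. Other genes were named as examples of a list, after their values were seen, and some are not reported here. RefSeq promoter windows were matched by symbol.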

Additional observations from a re-analysis of the deposited data

How the results depend on the processing

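Across 14 alternatives the number of genes called was 6381 to 7836 against 7695, that of other axis genes 40 to 48 against 48, and that of members 4 or 5 against 5. The member lost was IGF1R, without DMSO 1 and without the variance trend. Leaving out each sample gave 6568 to 7836 genes, 41 to 47 axis genes, 4 to 5 members, 70.6 to 73.8 RPKM and 52.3% to 54.1% for IGFBP3 with DMSO, and 27.0 to 27.4 RPKM and 21.3% to 22.6% with pladienolide B. Without DMSO 2 the counts were 7836, 47 and 5. With DESeq2 they were 6985, 45 and 5, and with edgeR's quasi-likelihood test 7738, 46 and 5. Of 349 values of 25 named genes under an alternative, 13 lost the call (10 of IGFBP1, 2 of IGF1R and 1 of IRS1) and no called value changed sign. Of genes not called, IRS2 went from 0.03 to -0.05 on the log2 scale without DMSO 2 and IGF2R from 0.04 to -0.01 without pladienolide B 2. With the canonical transcript's length IGFBP3 was at 126 RPKM with DMSO and 47.7 with pladienolide B. With no division by length its share was 71.7% and 38.8%. A replicate block gave 7349 genes, 45 axis genes and 5 members, but deviations of same-numbered samples correlated at -0.0851, -0.0597 and 0.0512, so the numbers gave no pairing. Depth limits IGFBP2, IGFBP5, IGFBP7 and the ligands, which had few reads.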
